A study of Mus musculus with 18 samples.

Results

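The genotype difference in the TGF-b response is the part of gene expression that changed by a different amount with TGF-b in CD4+ T cells lacking the PHD proteins than in control cells. It was measured as the TGF-b effect in triple-knockout cells (tKO, 2 minus 0 ng/mL) minus the TGF-b effect in wild-type cells (WT, 2 minus 0 ng/mL). The contrast used 8 of the 18 libraries of the series, replicates 1 and 2 of tKO at 2 and at 0 ng/mL and of WT at 2 and at 0 ng/mL. Of 10354 genes tested, 308 (2.97%) passed an adjusted p of 0.05 in this contrast with limma and Benjamini-Hochberg adjustment. The tKO mice were C57BL/6 and carried Egln1fl/fl, Egln2fl/fl and Egln3fl/fl together with Cd4Cre, and the WT mice were C57BL/6 and carried Cd4Cre alone. Cd4Cre is a recombinase driven by Cd4 regulatory sequence, so it acts during T cell development in the thymus, before the naive cells were sorted, and is not limited to the period of culture. Naive CD4+ T cells were sorted from spleens, stimulated with antibodies to CD3 and CD28, cultured with 0, 0.2 or 2 ng/mL TGF-b and collected on day 4. All cells, controls included, thus shared Cre and stimulation through the T cell receptor and CD28.

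PHD1, PHD2 and PHD3, the products of Egln2, Egln1 and Egln3, are prolyl hydroxylases that use oxygen to mark HIF-alpha proteins for degradation, so that cells without them accumulate HIF in air. HIF turns on genes of glucose uptake, glycolysis and mitophagy. TGF-b signals through SMAD2 and SMAD3 and, in stimulated naive CD4+ T cells, induces Foxp3, the transcription factor that defines regulatory T cells, and restrains T helper cytokine genes.

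Each group had 2 libraries, and the labels do not say whether they came from separate animals or cultures. In tKO the replicates differ in Y-linked transcripts and so did not come from the same animal. In WT nothing in the labels separates them, and the spread behind the p-values may be technical. The deposited values are FPKM (fragments scaled to transcript length and to the number mapped), and their sums ran from 548974 to 856147 per library over the 12 libraries of this experiment, with 9946 to 10342 gene symbols at 1 FPKM or more. The lowest sums were those of tKO at 2 ng/mL, 563272 and 548974, against 711375 and 779265 in tKO at 0. Absolute depth is unknown. Low values gave relative numbers of reads per FPKM between 0.441 and 1 times that of the highest library. Y-linked transcripts were present in the 3 tKO libraries of replicate 1 and at or near 0 in the other 9, with Eif2s3y between 42.0 and 45.5 FPKM in those 3. Xist was at or near 0 in those 3 and between 1.04 and 5.16 FPKM in the other 9. Without those 3 libraries 630 genes were called, among them 243 of the 308 in the same direction, and 59 of the 64 called genes named by the fixed rule stayed called. T cell markers summed to between 2567 and 3761 FPKM in every library. Lyz2, Lyz1, S100a8, S100a9 and Elane of the myeloid list, Ncr1 of the NK list and Zbtb16 of the NKT list were listed at 0 in all 12. B cell markers summed to 32.2 and 32.9 FPKM in tKO at 2 ng/mL and to 45.4 and 93.6 in tKO at 0, against 18.4 to 66.6 in WT at 2 ng/mL and 16.7 to 43.5 in WT at 0. Dendritic and MHC class II markers summed to 1023 and 1128 FPKM in tKO at 2 ng/mL and to 1130 and 1343 in tKO at 0, against 319 to 1019 in WT at 2 ng/mL and 466 to 775 in WT at 0. None of the B cell, dendritic, CD8 or NK markers tested was called in the contrast, and the part of such cells in the results was not tested. In bulk RNA, fewer cells of a type and less RNA per cell cannot be told apart.

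A positive difference means that TGF-b moved the gene further up, or less far down, in tKO than in WT, and it was found for 160 genes (1.55% of those tested), against 148 genes (1.43%) with a negative one. Differences are in log2(FPKM + 1), a scale on which genes with low values appear to change less than they do. The median size of the difference was 1.76 among the called genes and 0.42 over all genes tested, and the smallest called was 0.87. Of the called genes, 33 had at least 1 library listed at exactly 0, which can be a failed estimate, and 12 were joint entries of overlapping genes. The TGF-b effects of tKO and WT share no library, and across the 10354 genes they correlated at r = 0.466 (a description, since genes are not independent replicates). With the replicate number as a block within each genotype, 686 genes were called, all 308 among them in the same direction. Single libraries weighed on the count, which rose without tKO at 0 ng/mL replicate 1 and fell without any other library of the contrast. It was 82 and 86 without tKO at 2 ng/mL replicate 1 and replicate 2, 96 without tKO at 0 ng/mL replicate 2, 157 and 119 without WT at 2 ng/mL replicate 1 and replicate 2, and 78 and 148 without WT at 0 ng/mL replicate 1 and replicate 2. It was 713 and 719 without tKO at 0.2 ng/mL replicate 1 and replicate 2, and 174 and 176 without WT at 0.2 ng/mL replicate 1 and replicate 2, libraries that enter by the estimate of spread alone. The TGF-b effect itself was called for 1867 genes (18.0%) in tKO, 7.59% upward and 10.4% downward, and for 1626 genes (15.7%) in WT, 7.79% upward and 7.91% downward. The excess of falls in tKO (1081 genes down and 786 up) depended on the scaling. In tKO 800 genes fell and 843 rose with quantile normalization, and 844 fell and 952 rose with upper quartile scaling.

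**Figure D1:**
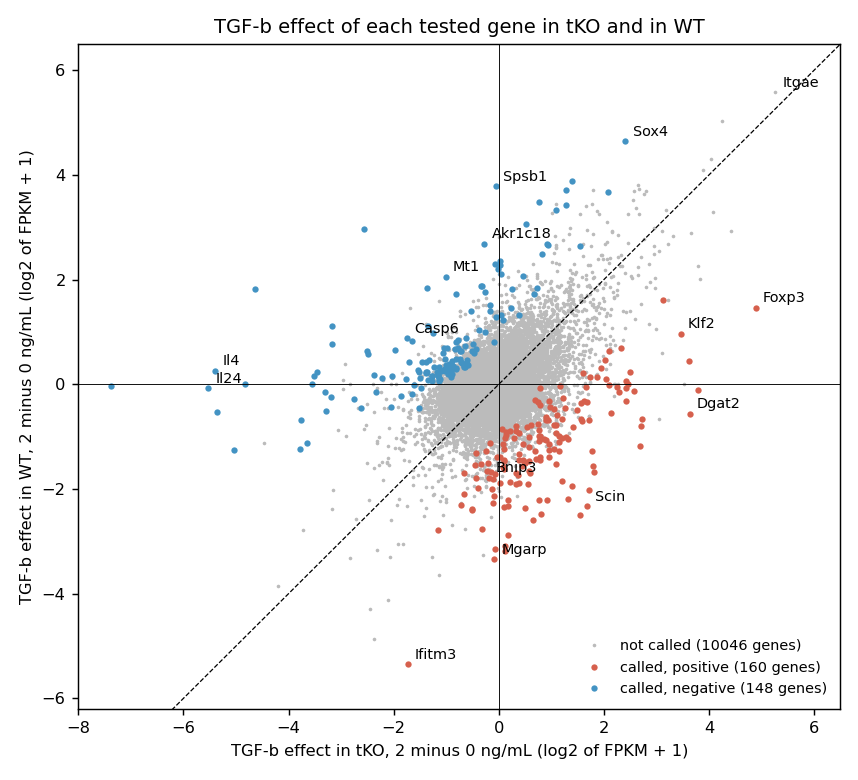
Log2 TGF-b effect (2 minus 0 ng/mL, FPKM + 1) in tKO on the horizontal axis against that in WT on the vertical axis for 10354 genes, 1 point a gene, with the 160 positive and 148 negative differences coloured and equal effects on the dashed line. Itgae lies close to that line, Foxp3 and Mgarp lie below it, and Il4, Il24 and Spsb1 above it.

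The called genes fell into a few patterns. Among the positive ones, 81 genes fell with TGF-b in WT without a call in tKO, 51 rose in tKO without a call in WT, and 19 rose in tKO and fell in WT. Among the negative ones, 91 genes fell in tKO without a call in WT, 33 rose in WT without a call in tKO, and 9 fell in tKO and rose in WT. In both directions together, 142 genes had a TGF-b effect called in tKO alone, 114 in WT alone, 28 in both with opposite signs, 21 in both with the same sign and 3 in neither. The calls of each genotype alone describe the pattern, and the difference is what was tested.

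**Figure D2:**
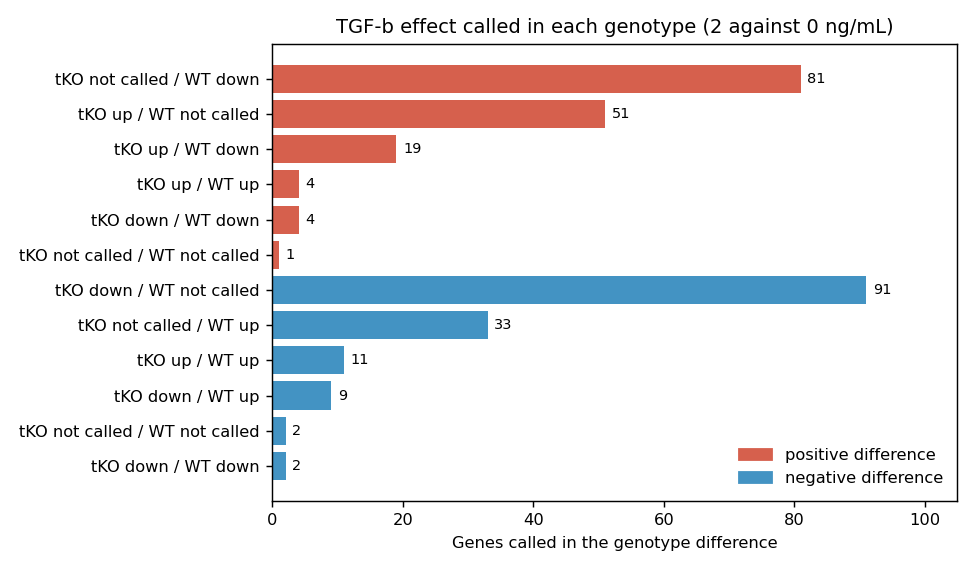
Number of called genes by the direction of the TGF-b effect called in tKO and in WT, with positive differences in red and negative ones in blue. The commonest patterns were a fall in tKO alone (91 genes) and a fall in WT alone (81 genes).

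Among 18 tested regulatory T cell genes the difference was positive for 6, negative for 1 and not called for 11. The shares over all genes tested were 1.55% positive and 1.43% negative. Foxp3 rose in both genotypes and further in tKO, Lrrc32 rose in tKO without a called effect in WT, both from a lower start in tKO, and the other 4 positive genes fell in WT without a called effect in tKO. Foxp3 (chrX:7134467-7182546, mm9) measured 86.7 and 142 FPKM in tKO at 2 ng/mL and 1.99 and 3.77 in tKO at 0, against 120 and 168 FPKM in WT at 2 ng/mL and 51.4 and 50.5 in WT at 0. The tKO libraries without TGF-b lay below all others, and at 2 ng/mL tKO and WT overlapped. Foxp3 rose in both genotypes, by 4.89 ± 0.28 in tKO and 1.46 ± 0.28 in WT (log2 ± SE), and the difference was 3.42 ± 0.40 (limma adjusted p = 0.00123). At 0 ng/mL tKO was lower than WT by a log2 difference of -3.78 (adjusted p = 2.42e-06), and at 2 ng/mL the difference was -0.36 (adjusted p = 0.434). At 0.2 ng/mL Foxp3 measured 40.2 and 30.9 FPKM in tKO, against 108 and 144 in WT.

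Lrrc32 encodes GARP, which presents latent TGF-b on the surface of activated regulatory T cells. It measured 17.0 and 13.0 FPKM in tKO at 2 ng/mL and 2.80 and 1.30 in tKO at 0, against 14.1 and 26.1 in WT at 2 ng/mL and 26.2 and 22.4 in WT at 0. As with Foxp3, the tKO libraries without TGF-b stood lowest, and the difference was 2.75 ± 0.45 (limma adjusted p = 0.00655). The adjusted p was 0.0534 at most under the alternatives tried. Klf2, a transcription factor that keeps T cells recirculating through lymphoid organs, gave a like picture, with 58.5 and 74.5 FPKM in tKO at 2 ng/mL and 5.61 and 4.63 in tKO at 0, against 238 and 254 in WT at 2 ng/mL and 130 and 120 in WT at 0. Klf2 rose in both genotypes, no tKO library reached the WT level at any dose, and the difference was 2.49 ± 0.33 (limma adjusted p = 0.00201). Foxp3 and Klf2 were not called on a square root scale, which weighs absolute rather than relative changes (adjusted p = 0.101 and 0.396).

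The 6 regulatory T cell genes with a positive difference were Foxp3, Lrrc32, Gpr83, Tnfrsf9, Tnfrsf18 and Folr4, and the negative one was Ccr8. The median difference of the list was 0.79, against -0.02 over all genes tested. The 6 did not share 1 pattern. Tnfrsf18 and Tnfrsf9, which encode the costimulatory receptors GITR and 4-1BB, together with Folr4 and Gpr83, fell with TGF-b in WT and had no called effect in tKO. Tnfrsf18 measured 582 and 530 FPKM in tKO at 2 ng/mL and 715 and 689 in tKO at 0, against 281 and 275 in WT at 2 ng/mL and 767 and 844 in WT at 0. Of these libraries the lowest were those of WT at 2 ng/mL, and the difference was 1.19 ± 0.23 (limma adjusted p = 0.0177). Ccr8, a chemokine receptor of regulatory and Th2 cells, rose in both genotypes, to 663 and 630 FPKM in tKO at 2 ng/mL against 349 and 379 in tKO at 0, and to 465 and 404 FPKM in WT at 2 ng/mL against 67.5 and 87.1 in WT at 0. The rise was the smaller in tKO (difference -1.66 ± 0.27, limma adjusted p = 0.00655), where Ccr8 was already above the WT level without TGF-b.

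Other regulatory T cell genes gave no called difference. Ikzf4, an Ikaros family factor that partners Foxp3, rose by 1.91 in tKO and 1.92 in WT, with a difference of -0.01 and a 95% interval from -0.69 to 0.66. Nrp1, a surface coreceptor, rose by 1.36 in tKO and 1.48 in WT, with a difference of -0.12 and an interval from -0.71 to 0.48. Nt5e, the adenosine-producing enzyme CD73, rose by 3.66 in tKO and 2.89 in WT, and its interval from -0.26 to 1.81 leaves room for a larger response in tKO. Ctla4, an inhibitory receptor, and Il2ra, the alpha chain of the IL-2 receptor, had no called TGF-b effect in either genotype, and their differences did not pass adjustment over all genes (limma adjusted p = 0.261 and 0.0926). The unadjusted 95% intervals of those differences lay above 0, from 0.01 to 1.20 around 0.61 for Ctla4 and from 0.29 to 1.34 around 0.81 for Il2ra.

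**Figure D3:**
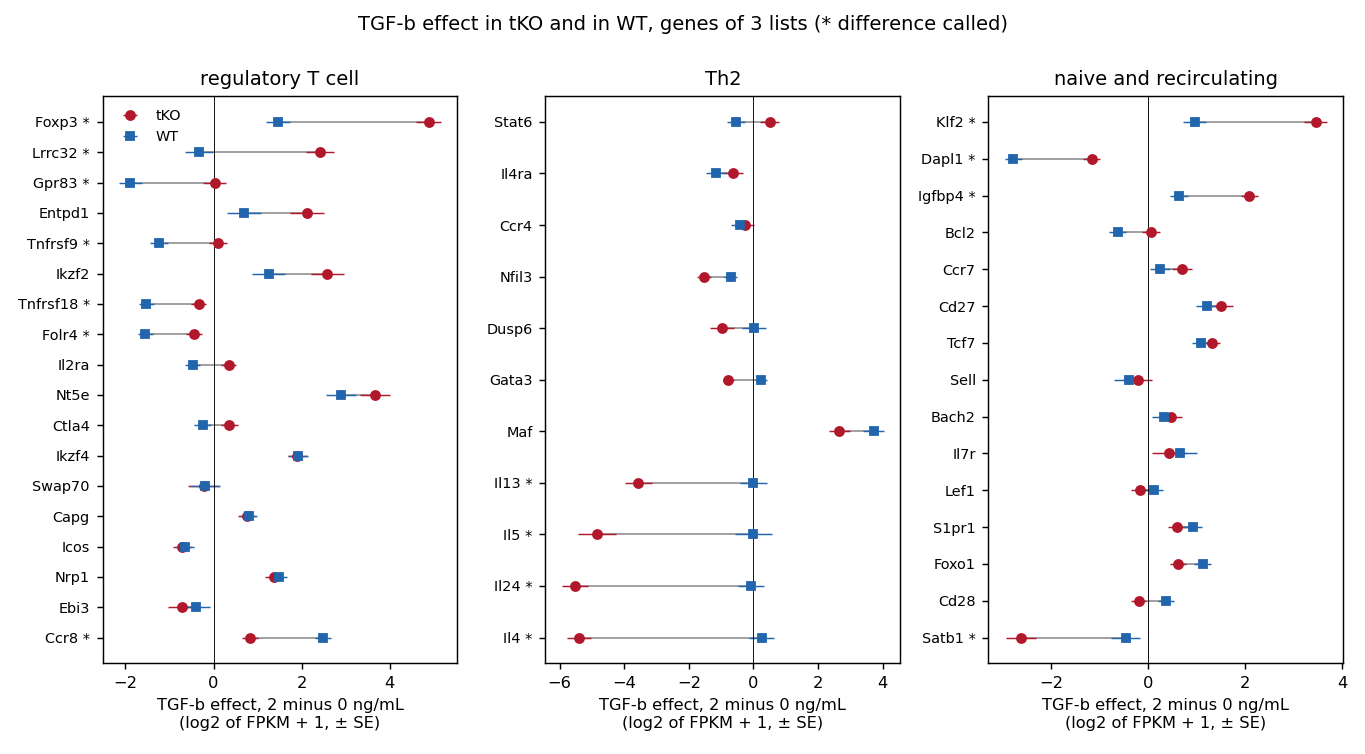
Log2 TGF-b effect (2 minus 0 ng/mL, FPKM + 1, ± SE) in tKO (red circles) and in WT (blue squares) for the tested genes of the regulatory T cell, Th2 and naive and recirculating lists, ordered by the difference, with an asterisk where it was called. Foxp3 stands at 4.89 in tKO and 1.46 in WT, Il24 at -5.53 in tKO and -0.07 in WT, and Klf2 at 3.46 in tKO and 0.97 in WT.

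Th2 cytokine genes moved the other way. They were expressed in tKO without TGF-b, nearly absent from WT, and fell in tKO with TGF-b. Il24, a cytokine of the IL-10 family, measured 1.93 and 1.18 FPKM in tKO at 2 ng/mL and 104 and 130 in tKO at 0, against 0.0385 and 0 in WT at 2 ng/mL and 0.152 and 0 in WT at 0. The difference was -5.46 ± 0.57 (limma adjusted p = 0.000596). Il4 (chr11:53425963-53432167, mm9), the cytokine that drives Th2 differentiation, measured 0.254 and 0 FPKM in tKO at 2 ng/mL and 37.9 and 56.4 in tKO at 0, against 0 and 0.915 in WT at 2 ng/mL and 0.337 and 0 in WT at 0. The difference was -5.66 ± 0.54 (limma adjusted p = 0.000489). For both genes the tKO libraries without TGF-b stood apart from all others, and WT levels were so low that a fall in WT could not have been seen.

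Il5 and Il13, which lie near Il4 on chromosome 11, followed the same course. Il5 measured 2.87 and 0 FPKM in tKO at 2 ng/mL and 62.4 and 48.9 in tKO at 0 (limma adjusted p of the difference 0.00801), and Il13 measured 0.0332 and 1.03 in tKO at 2 ng/mL and 12.5 and 20.7 in tKO at 0 (adjusted p = 0.00655). Both were listed at 0 in all WT libraries, so no fold is given and the difference is the fall in tKO alone. Both calls were lost when 0.1 in place of 1 was added to FPKM (a pseudocount of 0.1), and that of Il5 also without a filter. These 4 cytokines were the called members of the 11 tested Th2 genes, and 7 did not pass. Of all genes tested, 1.43% had a negative difference. The list's median difference was -0.999, against -0.02 over all genes tested. Gata3, the Th2 master transcription factor, measured 66.2 and 72.0 FPKM in tKO at 2 ng/mL and 126 and 112 in tKO at 0, against 28.8 and 31.9 in WT at 2 ng/mL and 29.0 and 22.9 in WT at 0. The tKO libraries were all above the WT libraries, and the difference missed the threshold (-0.999 ± 0.26, limma adjusted p = 0.0562, and 0.0392 with the replicate block within each genotype). Maf rose in both genotypes, by 2.66 in tKO and 3.73 in WT, with no called difference (adjusted p = 0.229).

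Csf2, which encodes GM-CSF, fell in tKO to 21.3 and 14.9 FPKM at 2 ng/mL, against 137 and 211 at 0, and measured 1.63 and 1.24 in WT at 2 ng/mL and 1.5 and 2.30 in WT at 0. Every tKO library exceeded every WT library, and the difference was -2.94 ± 0.57 (limma adjusted p = 0.0175), a call lost under 8 of the alternatives tried. Il9 lay just past the threshold, with 88.6 and 158 FPKM in tKO at 2 ng/mL and 207 and 717 in tKO at 0, against 1.19 and 2.67 in WT at 2 ng/mL and 0.0801 and 0 in WT at 0 (adjusted p = 0.0518). Spp1, which encodes osteopontin, rose in both genotypes and less so in tKO (difference -2.48 ± 0.59, adjusted p = 0.0425). Ltb, the lymphotoxin beta gene, rose in tKO and fell in WT. It measured 402 and 344 FPKM in tKO at 2 ng/mL and 218 and 215 in tKO at 0, against 396 and 274 in WT at 2 ng/mL and 730 and 589 in WT at 0. The difference was 1.77 ± 0.30 (limma adjusted p = 0.00801), a call lost under 3 alternatives. The genotypes overlapped at 2 ng/mL and not at 0 or 0.2 ng/mL. The list of Th9 and GM-CSF cytokines had 2 positive and 2 negative calls among 15 tested genes, with Osm the other positive one. Of all genes tested, 1.55% were positive and 1.43% negative.

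No Th1 gene was called among 15 tested, by this test, although the list's median difference was 1.01. Tbx21, which encodes the Th1 factor T-bet, measured 28.4 and 15.6 FPKM in tKO at 2 ng/mL and 61.2 and 36.9 in tKO at 0, against 0 and 0 in WT at 2 ng/mL and 20.7 and 6.22 in WT at 0. At 2 ng/mL both tKO libraries were above those of WT, which were listed at 0. The difference missed the threshold (limma adjusted p = 0.0521, and 0.00929 with the replicate block within each genotype, where 4 Th1 genes were called). Ifng measured 32.6 and 2.30 FPKM in tKO at 2 ng/mL and 18.8 and 32.0 in tKO at 0, against 0.0695 and 0 in WT at 2 ng/mL and 2.47 and 0.969 in WT at 0. The tKO libraries at 2 ng/mL were far apart, and the interval of its difference ran from -2.29 to 2.40. None of the 7 tested Th17 genes was called either, with a median of 0.96.

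**Figure D4:**
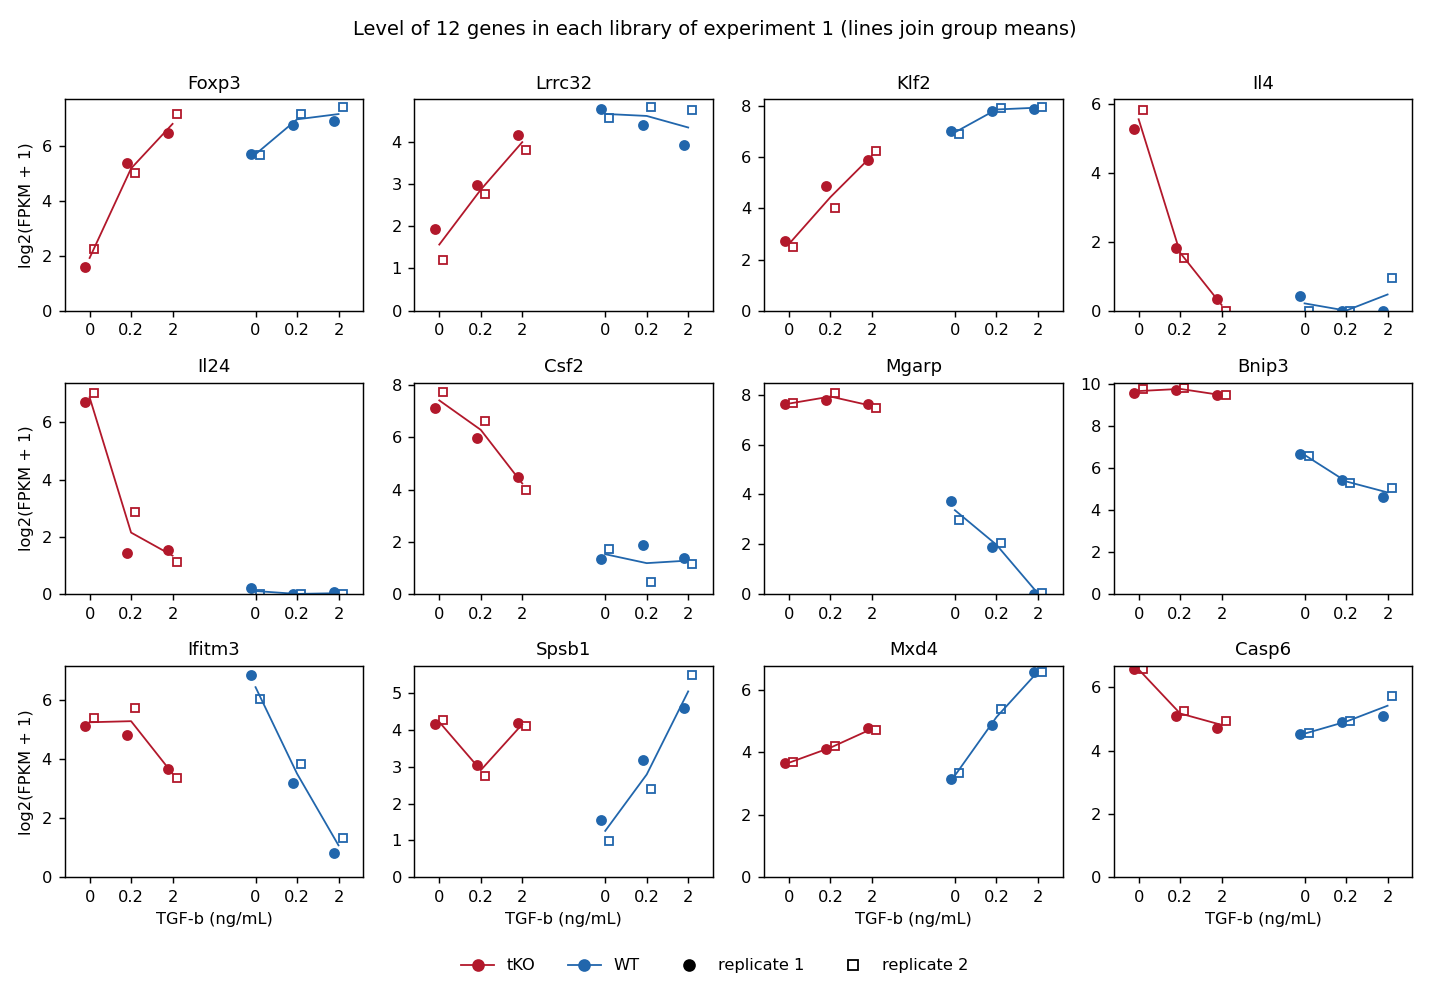
Level of 12 genes, as log2(FPKM + 1), in each library at 0, 0.2 and 2 ng/mL TGF-b, with tKO in red on the left and WT in blue on the right of each panel, circles for replicate 1, squares for replicate 2 and lines joining group means. Foxp3, Lrrc32 and Klf2 climb from a low start in tKO, Il4, Il24 and Csf2 drop from a high start in tKO, and Mgarp and Bnip3 stay high in tKO and drop in WT.

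Most glycolysis genes, and 14 of 32 other HIF targets, fell with TGF-b in WT. Of 23 tested glycolysis genes, 2 fell and 1 rose with TGF-b in tKO, while 18 fell in WT. The shares over all genes tested were 10.4%, 7.59% and 7.91%. The median TGF-b effect of the list was -0.28 in tKO and -1.20 in WT. With quantile normalization these medians were 0.17 in tKO and -1.27 in WT. The difference was called for 6 of the 23 (Pfkl, Aldoc, Tpi1, Pgk1, Eno3, Pdk1), all positive, with a median of 0.91 over the list, against -0.02 over all genes. Over all genes tested, 1.55% had a positive difference and 1.43% a negative one. Of 32 other HIF targets, 5 had a positive difference (Bnip3, Egln1, Ndrg1, Mgarp, Ak4), none a negative one and 27 did not pass, with a median of 0.45. In those 32 genes the TGF-b effect was upward for 3 and downward for 5 in tKO, against 1 upward and 14 downward in WT. The counts of 6 and 5 depended on the processing. They were 14 and 10 with quantile normalization and 11 and 7 with the replicate block within each genotype, and 3 and 1 on the square root scale, 2 and 3 without a filter and 2 and 4 without the mean-variance trend. The glycolysis count was 1, and that of other HIF targets 3, without tKO at 2 ng/mL replicate 1 or replicate 2, without WT at 2 ng/mL replicate 2 or without WT at 0 ng/mL replicate 1. The glycolysis count was 2 without tKO at 0 ng/mL replicate 2, WT at 0 ng/mL replicate 2 or either WT library at 0.2 ng/mL, and 12 without either tKO library at 0.2 ng/mL. The median difference of the glycolysis list stayed between 0.858 and 1.02 when 1 library was left out, and that of the other HIF targets between 0.276 and 0.679.

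The upstream sequences of 4 of these genes are shown to let the reader see where the core of the HIF binding motif lies in the promoters of genes that share this response. They are the 250 bases before the annotated start, 5′ to 3′ on the gene's strand, from RefSeq on GRCm38.p6, a later build than the mm9 of the expression values. Capitals mark ACGTG or GCGTG on either strand (CACGT or CACGC when read on the printed strand), and the palindrome CACGTG counts on both.
Bnip3 upstream window, chr7:138909507-138909756, minus strand: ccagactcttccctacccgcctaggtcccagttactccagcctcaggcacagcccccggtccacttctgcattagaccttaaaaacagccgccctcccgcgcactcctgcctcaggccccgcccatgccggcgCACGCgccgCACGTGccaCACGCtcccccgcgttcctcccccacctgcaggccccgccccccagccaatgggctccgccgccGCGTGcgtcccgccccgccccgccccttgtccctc
Mgarp upstream window, chr3:51396548-51396797, minus strand: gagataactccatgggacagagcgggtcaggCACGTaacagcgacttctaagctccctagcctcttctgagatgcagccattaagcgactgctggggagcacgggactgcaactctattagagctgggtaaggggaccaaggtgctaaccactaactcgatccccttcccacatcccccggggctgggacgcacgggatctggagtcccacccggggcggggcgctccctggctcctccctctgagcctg
Pgk1 upstream window, chrX:106186850-106187099, plus strand: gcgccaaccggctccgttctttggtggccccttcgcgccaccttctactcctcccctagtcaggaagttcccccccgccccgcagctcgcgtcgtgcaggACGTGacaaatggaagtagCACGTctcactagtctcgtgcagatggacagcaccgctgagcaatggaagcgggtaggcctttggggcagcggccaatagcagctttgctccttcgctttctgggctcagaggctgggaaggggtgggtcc
Tpi1 upstream window, chr6:124814159-124814408, minus strand: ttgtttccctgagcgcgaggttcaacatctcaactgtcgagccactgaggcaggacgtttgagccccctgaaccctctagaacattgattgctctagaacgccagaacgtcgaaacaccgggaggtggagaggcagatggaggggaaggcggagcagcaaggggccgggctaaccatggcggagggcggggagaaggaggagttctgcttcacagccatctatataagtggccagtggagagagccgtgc

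The Bnip3 window holds 5 matches, that of Pgk1 2, that of Mgarp 1 and that of Tpi1 none. Of the 11 called genes of the 2 lists, 10 had a window and 9 of those held the motif (90.0%), as did 40 of 49 windows of all tested genes of these lists (81.6%). The share was 59.0% over the 8161 tested genes with a window, 57.9% among genes with a positive difference and 52.1% among those with a negative one. Ndrg1 is named only. A match is a description of the letters and does not show binding.

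Bnip3 (chr7:146080394-146101189, mm9), a mitophagy receptor and classic HIF target, measured 720 and 710 FPKM in tKO at 2 ng/mL and 765 and 875 in tKO at 0, against 24.0 and 31.9 in WT at 2 ng/mL and 101 and 94.8 in WT at 0. It had no called effect in tKO (-0.19 ± 0.17) and fell in WT (-1.79 ± 0.17), so that the groups did not overlap at any dose and lay furthest apart at 2 ng/mL. The difference was 1.59 ± 0.23 (limma adjusted p = 0.00382). Mgarp (chr3:51192333-51200841, mm9), a mitochondrial protein induced by hypoxia, measured 197 and 179 FPKM in tKO at 2 ng/mL and 196 and 204 in tKO at 0, against 0 and 0.0287 in WT at 2 ng/mL and 12.4 and 6.96 in WT at 0. The difference was 3.25 ± 0.33 (limma adjusted p = 0.000561), with the WT value at 2 ng/mL at or near 0. Neither gene was called on the square root scale (adjusted p = 0.309 for Bnip3 and 0.113 for Mgarp).

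Ndrg1, a stress-responsive gene induced by HIF, measured 135 and 140 FPKM in tKO at 2 ng/mL and 89.2 and 126 in tKO at 0, against 14.5 and 11.2 in WT at 2 ng/mL and 44.4 and 45.2 in WT at 0 (difference 2.11 ± 0.32, limma adjusted p = 0.00483). Ak4, a mitochondrial adenylate kinase, measured 21.8 and 19.4 FPKM in tKO at 2 ng/mL and 24.6 and 20.2 in tKO at 0, against 0.468 and 0.162 in WT at 2 ng/mL and 6.92 and 3.98 in WT at 0 (difference 2.16 ± 0.42, adjusted p = 0.0177). Both stayed high in tKO and fell in WT, and neither overlapped between genotypes. Vegfa, the angiogenic factor, was higher in tKO at both doses without a called difference in its response (0.65, interval -0.30 to 1.60).

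Among the glycolytic enzymes, Tpi1 (chr6:124758959-124764314, mm9), triosephosphate isomerase, measured 1184 and 1233 FPKM in tKO at 2 ng/mL and 1519 and 1777 in tKO at 0, against 192 and 172 in WT at 2 ng/mL and 629 and 626 in WT at 0. WT fell by a log2 change of -1.78 and tKO had no called effect (-0.44), and the difference was 1.34 ± 0.23 (limma adjusted p = 0.00801). The Tpi1 call was lost under 5 alternatives, among them the square root scale. Pgk1, phosphoglycerate kinase, measured 1955 and 2021 FPKM in tKO at 2 ng/mL and 2549 and 2843 in tKO at 0, against 418 and 394 in WT at 2 ng/mL and 1026 and 997 in WT at 0. Its difference was 0.88 ± 0.21 (adjusted p = 0.0432). In both genes every tKO library exceeded every WT library. Slc2a1, the glucose transporter GLUT1, had a difference of like size, 1.38 ± 0.35, that missed the threshold (adjusted p = 0.0526).

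Eno3 and Pdk1 differed in pattern from the rest. Eno3, an enolase best known from muscle, rose in tKO to 98.9 and 137 FPKM at 2 ng/mL, against 29.1 and 40.7 at 0, and measured 117 and 110 in WT at 2 ng/mL and 166 and 200 in WT at 0. Without TGF-b it was lower in tKO than in WT (log2 difference -2.37, adjusted p = 3.95e-05) and at 2 ng/mL the genotypes overlapped, and the difference in the response was 2.40 ± 0.35 (limma adjusted p = 0.00319). Pdk1, a kinase that restrains pyruvate dehydrogenase, measured 80.7 and 77.5 FPKM in tKO at 2 ng/mL and 53.6 and 39.9 in tKO at 0, against 23.0 and 30.4 in WT at 2 ng/mL and 55.7 and 43.7 in WT at 0. The genotypes overlapped at 0 and 0.2 ng/mL and separated at 2 ng/mL (difference 1.64 ± 0.38, adjusted p = 0.0401), a call lost under 11 alternatives.

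**Figure D5:**
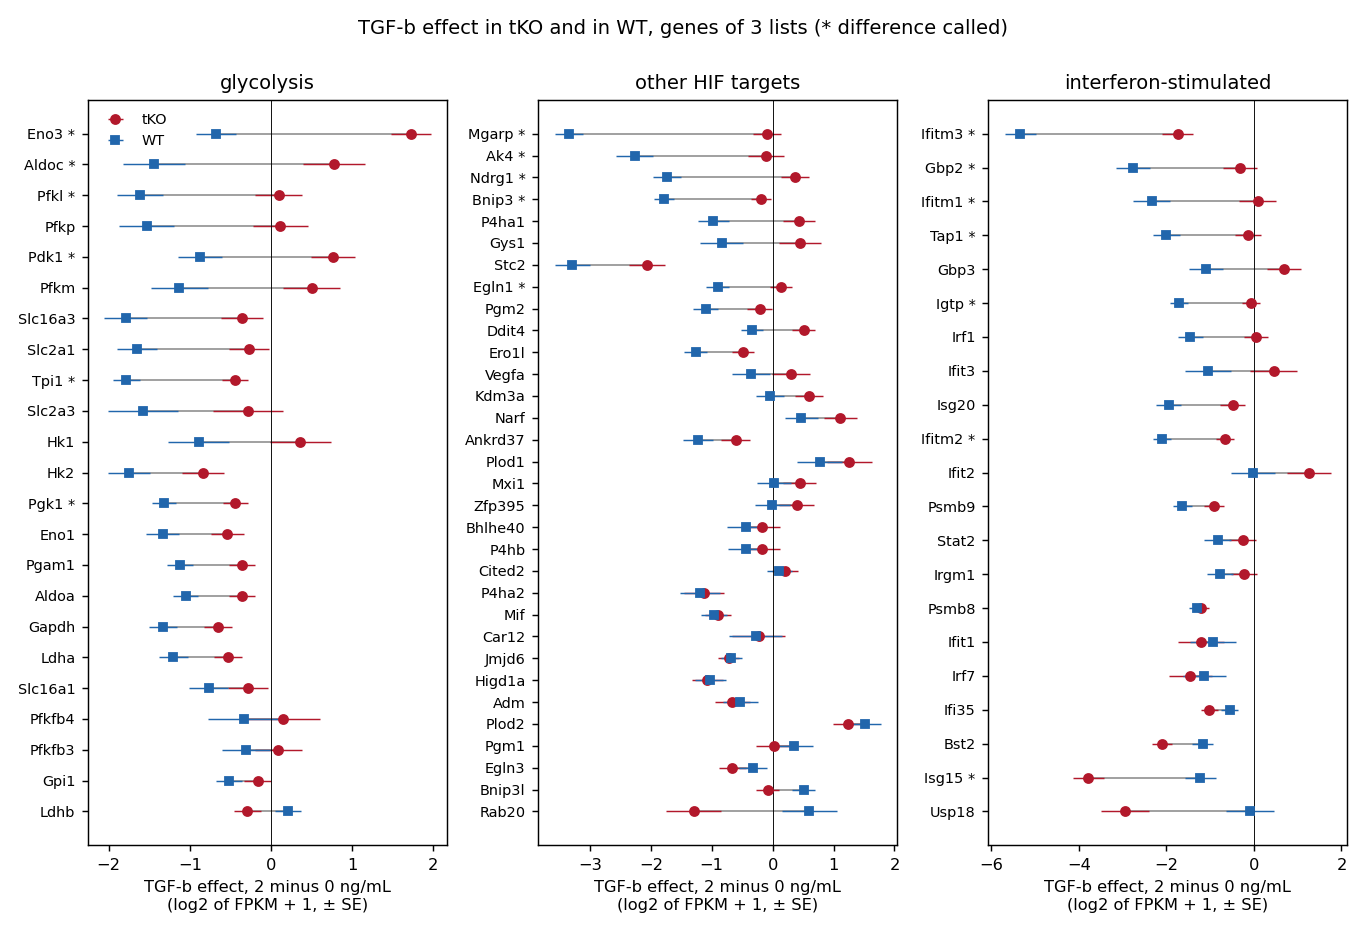
Log2 TGF-b effect (2 minus 0 ng/mL, FPKM + 1, ± SE) in tKO (red circles) and in WT (blue squares) for the tested genes of the glycolysis, other HIF target and interferon-stimulated lists, ordered by the difference, with an asterisk where it was called. Of 23 glycolysis genes 2 fell in tKO and 18 in WT, and Mgarp stands at -0.09 in tKO and -3.35 in WT.

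The targeted genes themselves were measured over the whole gene, so these values do not read the deleted exons and check nothing about the deletion. Egln1, also a HIF target, measured 116 and 108 FPKM in tKO at 2 ng/mL and 112 and 92.8 in tKO at 0, against 21.7 and 20.4 in WT at 2 ng/mL and 44.3 and 36.6 in WT at 0. Its levels were higher in tKO in all libraries, and the difference in the response was 1.04 ± 0.26 (limma adjusted p = 0.0483, lost under 14 alternatives). Egln2 measured 29.8 and 21.9 FPKM in tKO at 2 ng/mL and 39.0 and 29.7 in tKO at 0, against 46.4 and 35.6 in WT at 2 ng/mL and 48.8 and 47.1 in WT at 0 (difference -0.17, interval -0.95 to 0.62). Egln3 measured 77.4 and 79.4 FPKM in tKO at 2 ng/mL and 140 and 111 in tKO at 0, against 11.0 and 14.9 in WT at 2 ng/mL and 18.7 and 14.0 in WT at 0 (difference -0.34, interval -1.03 to 0.35). Egln3 was thus higher in tKO at either dose, and neither Egln2 nor Egln3 had a called difference.

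Genes of the direct TGF-b response moved in both genotypes. Of 19 tested genes of the TGF-b response list, 11 rose and 1 fell in tKO, and 11 rose and 1 fell in WT. The shares over all genes tested were 7.59% and 10.4% in tKO, and 7.79% and 7.91% in WT. Itgae, which encodes the CD103 integrin chain, measured 57.8 and 48.7 FPKM in tKO at 2 ng/mL and 0.970 and 0.0101 in tKO at 0, against 39.8 and 66.9 in WT at 2 ng/mL and 0.0709 and 0.136 in WT at 0. The genotypes overlapped at 2 ng/mL, and the difference was -0.32 with an interval from -1.42 to 0.79. Smad7, an inhibitor of the TGF-b receptor that TGF-b itself induces, rose by 1.73 in tKO and 2.27 in WT (difference -0.54, interval -1.39 to 0.31). Skil, a SMAD corepressor, rose by 1.34 in tKO and 1.67 in WT (difference -0.33, interval -1.10 to 0.45). These intervals do not show that the responses were equal.

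The 3 called members of that list of 19 tested genes were Id3, with a positive difference, and Id2 and Sox4, with negative ones. Over all genes tested, 1.55% were positive and 1.43% negative. Id3 and Id2 encode inhibitors of E proteins with opposed roles in T cell fate. Id3 measured 70.8 and 91.9 FPKM in tKO at 2 ng/mL and 40.0 and 43.1 in tKO at 0, against 159 and 123 in WT at 2 ng/mL and 230 and 218 in WT at 0. It rose in tKO and fell in WT, staying below WT throughout (difference 1.62 ± 0.26, limma adjusted p = 0.00626). Id2 measured 107 and 74.3 FPKM in tKO at 2 ng/mL and 285 and 328 in tKO at 0, against 93.1 and 95 in WT at 2 ng/mL and 70.6 and 108 in WT at 0 (difference -1.87 ± 0.34, adjusted p = 0.0111). For Id2 the genotypes overlapped at 2 ng/mL and not at 0 or 0.2 ng/mL, and the call was lost under 5 alternatives. Sox4, a TGF-b induced transcription factor, rose in both genotypes, to 5.01 and 8.02 FPKM in tKO at 2 ng/mL against 0.380 and 0.395 in tKO at 0, and to 66.4 and 71.9 in WT at 2 ng/mL against 1.58 and 2.03 in WT at 0. Its response was the smaller in tKO (difference -2.24 ± 0.42, limma adjusted p = 0.0139), a call lost under 6 alternatives.

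Of 21 tested interferon-stimulated genes, 8 fell with TGF-b in tKO and 12 in WT, against 10.4% and 7.91% of all genes tested. The difference was positive for 6 (Ifitm1, Ifitm2, Ifitm3, Igtp, Gbp2, Tap1) and negative for 1 (Isg15), with a list median of 1.28. Of all genes tested, 1.55% were positive and 1.43% negative, and the median was -0.02. Ifitm3, a membrane protein that restricts virus entry, fell in both genotypes, to 11.7 and 9.14 FPKM in tKO at 2 ng/mL against 33.3 and 40.5 in tKO at 0, and to 0.761 and 1.53 in WT at 2 ng/mL against 113 and 63.7 in WT at 0. The difference was 3.61 ± 0.50 (limma adjusted p = 0.00235). Ifitm3 was called higher in tKO than in WT at 2 ng/mL (log2 2.42, adjusted p = 0.00052). Its lower level in tKO at 0 ng/mL was not called (-1.19, adjusted p = 0.0524). Gbp5, a guanylate-binding protein outside the list, had a positive difference (3.30 ± 0.58, limma adjusted p = 0.00926), a call lost under 6 alternatives. Gbp5 measured 15.1 and 14.4 FPKM in tKO at 2 ng/mL and 19.7 and 9.23 in tKO at 0, against 3.57 and 1.64 in WT at 2 ng/mL and 46.8 and 19.9 in WT at 0. Isg15, a ubiquitin-like modifier, measured 1.84 and 2.22 FPKM in tKO at 2 ng/mL and 40.1 and 41.6 in tKO at 0, against 4.21 and 2.40 in WT at 2 ng/mL and 10.3 and 7.59 in WT at 0. It went against the other called members of the list (difference -2.56 ± 0.50, adjusted p = 0.0177), a call lost under 8 alternatives. At 0.2 ng/mL the Isg15 difference had the other sign and was not called (1.20, limma adjusted p = 0.569).

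Of 20 tested sterol synthesis genes, 2 rose and none fell with TGF-b in tKO, while 8 fell in WT. The shares over all genes tested were 7.59%, 10.4% and 7.91%, and 1.55% had a positive difference. The list's median difference was 0.80, and 3 genes had a positive one, among them Sqle and Cyp51. Cyp51, the lanosterol demethylase, measured 78.3 and 69.3 FPKM in tKO at 2 ng/mL and 52.4 and 43.2 in tKO at 0, against 44.6 and 47.6 in WT at 2 ng/mL and 79.7 and 79.6 in WT at 0 (difference 1.40 ± 0.24, limma adjusted p = 0.0092). It was below WT at 0 ng/mL and above WT at 2 ng/mL, and the genotypes overlapped at 0.2 ng/mL. The Cyp51 call was lost under 2 alternatives. Sqle, squalene epoxidase, measured 67.6 and 71.3 FPKM in tKO at 2 ng/mL and 63.6 and 55.6 in tKO at 0, against 43.9 and 40.4 in WT at 2 ng/mL and 86.1 and 73.5 in WT at 0 (difference 1.12 ± 0.25, adjusted p = 0.0333), a call lost under 11 alternatives. Cell cycle genes had a median difference of 0.64, with 29 of 30 above 0. Of these 30 genes 3 fell in tKO and 17 in WT, and the difference was called for Plk1, a mitotic kinase (0.92 ± 0.21, adjusted p = 0.0365). Plk1 measured 81.8 and 81.5 FPKM in tKO at 2 ng/mL and 82.4 and 74.9 in tKO at 0, against 73.8 and 65.7 in WT at 2 ng/mL and 127 and 128 in WT at 0. Between the genotypes Plk1 was called at 0 ng/mL, where it was lower in tKO (log2 difference -0.69, limma adjusted p = 0.00868). At 2 ng/mL no genotype difference was called (0.23, adjusted p = 0.337). The call of its difference in the response was lost under 10 alternatives.

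Of 34 tested oxidative phosphorylation genes, 20 fell with TGF-b in tKO, against 1 that fell and 1 that rose in WT. The shares over all genes tested were 10.4%, 7.91% and 7.79%, and 1.43% had a negative difference. The difference was negative for 2 and not called for 32, with a median of -0.51 and 2 of 34 above 0. At 0.2 ng/mL the lean was the other way, with a median difference of 0.17, 25 of 34 above 0 and no call. With quantile normalization the median difference was -0.23, with 10 of 34 above 0, and the median TGF-b effect in tKO was -0.18, against -0.68 without it. The 2 called were Cox4i1 and Ndufa2, which encode subunits of complex IV and complex I. Cox4i1 measured 410 and 396 FPKM in tKO at 2 ng/mL and 697 and 866 in tKO at 0, against 821 and 766 in WT at 2 ng/mL and 599 and 710 in WT at 0 (difference -1.23 ± 0.30, limma adjusted p = 0.0448). Both tKO libraries at 2 ng/mL lay below all others, while those at 0.2 ng/mL measured 700 and 1122 FPKM. The Cox4i1 call was lost under 13 alternatives. Ribosome biogenesis genes had 12 falls in tKO and 11 in WT among 21 tested, with a median difference of 0.00 and no call.

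The remaining lists gave few calls, against 1.55% positive and 1.43% negative over all genes tested. Naive and recirculating T cell genes had 3 positive (Klf2, Igfbp4, Dapl1) and 1 negative (Satb1) among 15, cytotoxic genes 1 positive (Gzmc) and 1 negative (Srgn) among 10, p53 targets 1 positive (Fas) and 1 negative (Gadd45a) among 16, and checkpoint receptors 1 negative (Tigit) among 9. Immediate early genes had 1 positive call (Junb) among 18, the TCA cycle 1 (Pcx) among 21, ATF4 and amino acid genes 1 (Cebpb) among 24 and T cell markers 1 (Cd2) among 10. The calls of Gzmc, Junb, Tigit and Gadd45a were lost under 13, 8, 7 and 5 alternatives. Mt1, a zinc-binding metallothionein, was the called member of 6 metallothionein and zinc genes. It measured 726 and 710 FPKM in tKO at 2 ng/mL and 1199 and 1754 in tKO at 0, against 86.7 and 71.8 in WT at 2 ng/mL and 17.2 and 19.3 in WT at 0. It fell in tKO and rose in WT while staying far above WT in every tKO library (difference -3.07 ± 0.38, limma adjusted p = 0.00146). The Mt1 call was lost on the square root scale (limma adjusted p = 0.0886). Srgn, which encodes the granule proteoglycan serglycin, fell in tKO to 191 and 129 FPKM at 2 ng/mL, against 740 and 732 at 0, and measured 342 and 265 in WT at 2 ng/mL and 275 and 281 in WT at 0 (difference -2.34 ± 0.34, adjusted p = 0.00382).

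Outside the lists, the largest positive differences among single genes reaching 10 FPKM in a group were those of Dgat2 and Scin. Dgat2, an enzyme of triglyceride synthesis, measured 36.4 and 41.3 FPKM in tKO at 2 ng/mL and 1.79 and 2.69 in tKO at 0, against 1.14 and 6.03 in WT at 2 ng/mL and 3.06 and 7.09 in WT at 0 (difference 4.20 ± 0.68, limma adjusted p = 0.00624). The tKO libraries at 2 ng/mL stood apart from all others, and those at 0.2 ng/mL measured 8.20 and 6.55 FPKM. Scin, which encodes the actin-severing protein scinderin, measured 70.8 and 63.4 FPKM in tKO at 2 ng/mL and 27.2 and 14.8 in tKO at 0, against 0.874 and 0.710 in WT at 2 ng/mL and 9.28 and 6.90 in WT at 0 (difference 4.02 ± 0.48, adjusted p = 0.00137). It rose in tKO and fell in WT and was higher in tKO at both doses. Idi2, an isopentenyl diphosphate isomerase, rose in tKO to 26.9 and 38.2 FPKM at 2 ng/mL, against 0.528 and 2.78 at 0, and stayed between 0.172 and 1.21 in WT at these doses.

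Acvrl1, which encodes the TGF-b superfamily receptor ALK1, measured 13.7 and 11.5 FPKM in tKO at 2 ng/mL and 3.17 and 3.11 in tKO at 0, against 1.40 and 0.320 in WT at 2 ng/mL and 8.30 and 4.61 in WT at 0. The difference was 3.73 ± 0.51 (limma adjusted p = 0.00201). Acvrl1 was called higher in tKO than in WT at 2 ng/mL (log2 2.93, adjusted p = 0.000145). Its lower level in tKO at 0 ng/mL was not called (-0.80, adjusted p = 0.21). Map6, a microtubule-stabilising protein, was called lower in tKO than in WT at 0 ng/mL and higher at 2 ng/mL. It measured 7.03 and 11.4 FPKM in tKO at 2 ng/mL and 3.24 and 2.78 in tKO at 0, against 2.27 and 2.45 in WT at 2 ng/mL and 13.7 and 15.1 in WT at 0 (difference 3.52 ± 0.42, adjusted p = 0.00137). Pla2g4f, a cytosolic phospholipase, rose in tKO by 2.73 ± 0.31 and had no called effect in WT. Pcx, the pyruvate carboxylase gene, fell in WT by a log2 change of -2.47 ± 0.37 and had no called effect in tKO. Ccdc164 measured 4.12 and 7.33 FPKM in tKO at 2 ng/mL and was listed at 0 for both tKO replicates at 0 ng/mL, against 14.9 and 24.5 in WT at 2 ng/mL and 37.8 and 30.6 in WT at 0.

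The largest negative differences came mostly from genes high in tKO without TGF-b. Pde1a, a calcium-dependent phosphodiesterase, measured 1.21 and 0.833 FPKM in tKO at 2 ng/mL and 71.6 and 93.3 in tKO at 0, and was listed at 0 in WT at 2 ng/mL and at 0.491 and 0.384 FPKM in WT at 0 (limma adjusted p = 0.000561). Batf3, an AP-1 family transcription factor, measured 1.14 and 1.26 FPKM in tKO at 2 ng/mL and 64.4 and 79.1 in tKO at 0, and was listed at 0 in WT at 2 ng/mL and at 1.35 and 1.42 FPKM in WT at 0 (adjusted p = 0.00201). Rnd3, an atypical small GTPase, Ajuba, a LIM domain protein, and Il12a, the p35 chain shared by IL-12 and IL-35, showed the same course at lower levels, with tKO values without TGF-b of 13.8 and 9.69 FPKM for Rnd3, 18.3 and 16.1 for Ajuba and 6.17 and 22.2 for Il12a. In each, the tKO libraries without TGF-b were above all others. The Il12a call was lost under 12 of the 22 alternatives in which it was tested, and that of Ajuba under 3 of 22. The Batf3 call was lost with a pseudocount of 0.1. The small nucleolar RNA entries Snord47 and Snord32a, also among the largest negative differences, had 5 and 3 libraries listed at 0. Snord32a had a called rise in WT (2.97 ± 0.85, limma adjusted p = 0.0303). Its fall in tKO was not called (-2.56 ± 0.85, adjusted p = 0.0517), and the call of its difference was lost under 9 alternatives.

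Other negative differences came with a rise in WT. Spsb1 and Akr1c18 had no called effect in tKO, where they were already high. Spsb1, a substrate adaptor of a ubiquitin ligase, measured 17.2 and 16.4 FPKM in tKO at 2 ng/mL and 17.0 and 18.2 in tKO at 0, against 23.0 and 44.4 in WT at 2 ng/mL and 1.92 and 0.964 in WT at 0 (difference -3.85 ± 0.48, limma adjusted p = 0.00149). Akr1c18, a progesterone-metabolising reductase, measured 505 and 383 FPKM in tKO at 2 ng/mL and 623 and 454 in tKO at 0, against 168 and 215 in WT at 2 ng/mL and 24.4 and 33.8 in WT at 0 (difference -2.96 ± 0.35, adjusted p = 0.00123). Mxd4, which encodes a MAX partner that opposes MYC, rose in both, to 26.4 and 25.3 FPKM in tKO at 2 ng/mL against 11.6 and 11.8 in tKO at 0, and to 93.8 and 94.6 in WT at 2 ng/mL against 7.92 and 9.19 in WT at 0 (difference -2.24 ± 0.29, adjusted p = 0.00182). Casp6, an executioner caspase, fell in tKO and rose in WT, with 24.9 and 29.3 FPKM in tKO at 2 ng/mL and 93.2 and 93.3 in tKO at 0, against 33.1 and 52.3 in WT at 2 ng/mL and 21.8 and 22.5 in WT at 0 (difference -2.63 ± 0.30, adjusted p = 0.00112). For Casp6 the tKO libraries were above WT at 0 ng/mL and below WT at 2 ng/mL. At 0.2 ng/mL they were still above WT, with 32.8 and 37.4 FPKM against 28.7 and 29.6. The genotype difference at 2 ng/mL was not called (log2 -0.61, limma adjusted p = 0.0684).

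Asked at which dose the genotypes differed, 148 of the 308 genes were called between tKO and WT at 2 ng/mL alone, 99 at 0 ng/mL alone, 35 at both doses in the same direction, 16 at both in opposite directions and 10 at neither. Over all genes tested, tKO and WT differed for 1655 (16.0%) at 2 ng/mL and 998 (9.64%) at 0 ng/mL. Foxp3, Lrrc32, Id2 and Il4 were among those called at 0 ng/mL alone, and Sqle, Tap1, Dgat2 and Pcx among those called at 2 ng/mL alone. Bnip3, Mgarp and Tpi1 differed at both doses in the same direction and Map6 in opposite directions.

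At 0.2 ng/mL the same contrast called 45 genes (0.435%), 27 positive and 18 negative, and 106 with the replicate block within each genotype. Of the 45, 32 were also called at 2 ng/mL. The 2 contrasts share the libraries without TGF-b, so their values are given side by side and neither supports the other. Il24 differed by -4.63 at 0.2 and -5.46 at 2 ng/mL, Il4 by -3.67 and -5.66, Bnip3 by 1.37 and 1.59, Ndrg1 by 2.22 and 2.11, and Eno3 by 2.17 and 2.40, and these 5 were called at both doses. Foxp3 differed by 1.99 at 0.2 ng/mL (limma adjusted p = 0.0511) and Mt1 by -0.77 (adjusted p = 0.675), neither called at that dose. Gata3 was called at 0.2 ng/mL (-1.63, adjusted p = 0.0242) and not at 2 ng/mL.

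The genes just inside the threshold were Gata1, Npas2 and the joint entry Rpl34,Rpl34-ps1, with adjusted p between 0.0496 and 0.0499, and those just outside were Dok2, Atp1b1 and Il9, between 0.0512 and 0.0518. At an unadjusted p under 0.05 there were 1935 genes.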

How the data were processed

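RNA sequencing of 12 libraries from experiment 1 was used (2 genotypes, 3 TGF-b doses, 2 libraries per group), and the 6 libraries of experiment 2 are not used here. RNA was amplified with a low-input kit that keeps no strand information, and reads of antisense partners are counted together. Cuffdiff, Cufflinks, TopHat, Trimmomatic and the mm9 build appear in the submitters' processing notes, with no version given. Per the file headers, FPKM values were deposited for each library. Without counts, neither a count model nor a counting interval could be used. The table held 34309 entries, of which 18 exact duplicates were dropped. The 8483 entries without a symbol (2.51 to 9.55% of FPKM) were left out and the rest were summed to 22783 symbols.

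A gene was tested if its mean over the 12 libraries reached 1 FPKM. Log2(FPKM + 1) values were fitted with limma 3.58.1 (R 4.3.3), using 1 coefficient for each group and a trend of variance with level. The contrast used 8 libraries, and the other 4 add to the estimate of spread. All adjusted p-values are two-sided limma tests with Benjamini-Hochberg adjustment over 10354 genes. Alternatives were other pseudocounts, scales, filters and normalizations, replicate blocks and leaving out libraries. The labels number the replicates 1 and 2 without saying what a number stands for. In tKO, deviations of same-numbered libraries from their group means correlated at 0.11, 0.127 and 0.416, and the Y-linked transcripts followed the number, so the numbers pair the tKO libraries. In WT the correlations were 0.0573, 0.0899 and 0.186, and pairing was not shown.

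The members, the 21 pathway lists and 8 marker lists were chosen with earlier results of these data known. Genes were named by rule: the 12 largest positive and negative differences among called single symbols with a group mean of 10 FPKM or more, the up to 3 called members of each pathway list with the smallest p, the 3 smallest p of each response class, and Egln1, Egln2, Egln3, Foxp3, Itgae, Smad7, Tbx21 and Gata3. Other list members were named as examples after their values were seen. Some genes that the rule names are not reported here. Coordinates are mm9, 1-based, except the upstream windows.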

Additional observations from a re-analysis of the deposited data

Results flagged for a closer look

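The TGF-b effect was called in opposite directions in the genotypes for 28 genes, 19 that rose in tKO and fell in WT and 9 that fell in tKO and rose in WT. The difference itself was tested with limma and passed for all 28. Among the named genes, those that rose in tKO and fell in WT were Scin (difference 4.02), Acvrl1 (3.73), Map6 (3.52), Ltb (1.77), Id3 (1.62) and Cyp51 (1.40). Those that fell in tKO and rose in WT were Mt1 (-3.07) and Casp6 (-2.63). The group size of 2 libraries leaves no test for a single sample that stands apart.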

How the results depend on the processing

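The contrast at 2 ng/mL called 308 genes and that at 0.2 ng/mL 45. Without a filter on low values the counts were 157 and 16, without the mean-variance trend 167 and 5, and with a pseudocount of 0.1 the contrast at 0.2 ng/mL called 17. With only the 8 libraries at 0 and 2 ng/mL the count was 511. Other pseudocounts, filters and scalings stayed within 1.5 times. Leaving out 1 library at a time, or the 3 tKO libraries of replicate 1 (chosen after seeing the Y-linked transcripts), gave between 78 and 719 genes at 2 ng/mL and between 1 and 110 at 0.2 ng/mL. The same gave 579 to 2388 genes for the TGF-b effect in tKO, 660 to 2091 for that in WT, 717 to 2160 for tKO against WT at 2 ng/mL and 513 to 1235 at 0 ng/mL. Leaving out 1 library at a time gave 2 to 7 positive calls among regulatory T cell genes, 1 to 8 among interferon-stimulated genes and 0 to 6 among sterol synthesis and cell cycle genes, and 4 or 5 negative calls among Th2 genes and 0 to 6 among those of oxidative phosphorylation. The cause was not tested.

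With a replicate block within each genotype the contrasts called 686 and 106 genes, and with a replicate block across genotypes 512 and 80. Deviations of same-numbered libraries correlated at 0.0573 to 0.416 within a genotype (6 pairs) and at -0.106 to 0.255 between genotypes (9 pairs). The numbers tie the tKO libraries to each other, and were not shown to tie the WT libraries or those of different genotypes.

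Of the 64 called named genes, 18 stayed called under all 23 alternatives other than leaving out the tKO libraries of replicate 1, and Rnd3 did under the 22 in which it was tested. The 18 include Il4, Il24, Scin, Casp6, Mxd4, Ndrg1, Eno3 and Id3. None of the 64 changed sign. The sign changed for Egln2 and Itgae, which were never called, with ranges from -0.38 to 0.046 and from -0.80 to 0.17 when libraries were left out, including 0.016 (Egln2 without WT at 2 ng/mL replicate 1), 0.021 (Egln2 without tKO at 0 ng/mL replicate 1), 0.050 (Itgae without WT at 2 ng/mL replicate 2) and 0.044 (Itgae without the tKO libraries of replicate 1). Absolute depth is unknown, so levels near 0 and their differences are the least certain.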
